A study of Mus musculus with 2 samples.

Results

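The barcodes with the highest hemoglobin share were taken from the single-cell transcriptomes of mouse bone marrow. A barcode was kept when it had at least 500 UMIs (unique molecular identifiers, which count captured RNA molecules) and at most 20% of them from the mitochondrial genome, and when Hbb-bt, Hbb-bs, Hba-a1 and Hba-a2 together made up 90% or more of its UMIs. This left 4089 of 33691 barcodes. The WT library contributed 1457 of its 19764 barcodes and the DKO library 2632 of its 13927.

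Total bone marrow of 1 WT and 1 DKO mouse, both 2 months old, was flushed from the femur and sequenced with the 10x Chromium 3' v3 chemistry, with 1 library per mouse. The study asked what the hematopoiesis of mice without the helicase Ddx41 looks like when the DNA sensor cGas is also absent. The DKO mouse was VavCre:Ddx41fl/fl cGas-/-, in which Vav-driven Cre acts across the hematopoietic lineage while cGas is absent from every cell of the animal. The WT label stands for a control without VavCre and with wild-type cGas, which by the methods carried Ddx41fl/fl, so that both mice were floxed and only one had Cre. No mouse with loss of Ddx41 alone or cGas alone was analysed here, and the contributions of both deletions cannot be told apart. As a genotype is represented by 1 animal, variation among animals is unknown and genotypes were compared without a test. The intervals given below are exact 95% intervals and cover counting error only.

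A reticulocyte is the red cell after it has expelled its nucleus. It no longer transcribes its genes, and it finishes its proteins from the mRNA it kept, most of which encodes globin, while mitochondria, ribosomes and surplus membrane are removed. Hemoglobin is built from alpha and beta chains that are needed in equal amounts, each holding a heme group. A rising share of globin in the RNA is therefore a usual mark of late terminal erythropoiesis, but it is a measure of RNA composition and does not show that a nucleus has been lost.

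The promoters of the globin genes are shown because every barcode described here was chosen by these genes. The windows are the 250 bases before the RefSeq transcription start on GRCm38.p6, read 5′ to 3′ on the strand of the gene. Capitals mark matches on either strand to ATATAA, a sequence of the kind that positions the start of transcription, and to the promoter box CCAAT. They also mark CACCC, a core that erythroid Klf factors bind. The last motif is GATAAG, a core bound by the erythroid factor Gata1.

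Hba-a1: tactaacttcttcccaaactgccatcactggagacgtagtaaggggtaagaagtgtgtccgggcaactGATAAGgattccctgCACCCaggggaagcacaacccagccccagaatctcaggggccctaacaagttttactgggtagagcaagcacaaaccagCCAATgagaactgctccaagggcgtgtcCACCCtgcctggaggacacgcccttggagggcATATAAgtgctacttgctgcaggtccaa

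Hbb-bs: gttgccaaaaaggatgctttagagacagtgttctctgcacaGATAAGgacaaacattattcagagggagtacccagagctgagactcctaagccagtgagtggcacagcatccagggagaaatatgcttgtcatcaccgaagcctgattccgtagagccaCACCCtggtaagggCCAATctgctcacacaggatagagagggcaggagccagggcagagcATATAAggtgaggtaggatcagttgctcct

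Hbb-bt: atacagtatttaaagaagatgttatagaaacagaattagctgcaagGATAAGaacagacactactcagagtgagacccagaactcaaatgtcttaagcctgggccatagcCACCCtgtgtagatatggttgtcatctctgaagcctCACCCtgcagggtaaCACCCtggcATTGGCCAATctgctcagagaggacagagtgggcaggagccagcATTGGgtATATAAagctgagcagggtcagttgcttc

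The Hba-a1 window lies at chr11:32283422-32283671 on the plus strand, Hbb-bs at chr7:103827929-103828178 and Hbb-bt at chr7:103813924-103814173, both on the minus strand. The GENCODE M21 records of these genes begin inside the windows, upstream of the RefSeq start used here. The window of Hba-a2, at chr11:32296242-32296491 on the plus strand, shared an unbroken run of 247 bases with that of Hba-a1. Because both alpha genes are near copies, the split of reads between them is uncertain, and their sum is the safer quantity. Hbb-bs and Hbb-bt shared 185 identical aligned bases, which is 74.0% of the window. All 4 windows held each of the 4 motifs at least 1 time. Over the 32851 promoter windows of the same length in the table, ATATAA occurred in 9.10%, CCAAT in 33.8%, CACCC in 52.0% and GATAAG in 6.55%. In Hbb-bt a reversed and a forward CCAAT stand side by side, from base 80 to base 71 before the start, and the window held 3 CCAAT matches against 1 in each of the others. A match describes letters and not a bound site.

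The 90% line cut through the upper peak of the hemoglobin distribution, among barcodes of 75% and more, in both libraries. The members were 7.37% of the WT library (interval 7.01% to 7.75%) and 18.9% of the DKO library (18.3% to 19.6%). Barcodes of 75 to 90% showed the opposite order, with 4100 in WT (20.7%) and 1461 in DKO (10.5%). All barcodes of 75% and more together made up 28.1% of WT and 29.4% of DKO. Among barcodes of 75% and more, the fullest bin of 1 percentage point was 89 to 90% in WT, with 678 barcodes, and 92 to 93% in DKO, with 575. The counts on either side of the threshold were 678 and 544 in WT and 342 and 492 in DKO. These values chose the members and are given as a description.

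**Figure D1:**
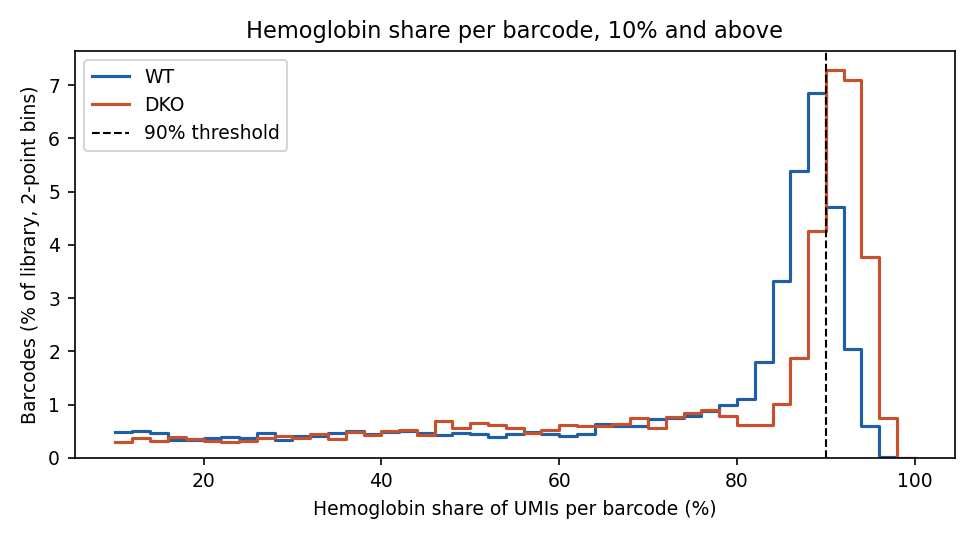
Hemoglobin share of the UMIs of each barcode (x axis, percent) against the percent of the library's barcodes in bins of 2 points (y axis), for WT (blue) and DKO (orange), with the threshold of 90% dashed. Barcodes under 10% are not drawn. The WT peak stands just left of the line and the DKO peak just right of it.

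Free RNA from broken cells moved with this share. The 16 genes of the neutrophil marker list, which encode proteins red cells are not known to make, summed to 10949 counts per 1000000 non-hemoglobin UMIs (CPM, so counted without hemoglobin throughout) in the WT members and to 5047 in the DKO members, against 41849 in the WT barcodes with 1 to 100 UMIs, which are taken to hold free RNA and no cell. None of the 16 markers was at 0 in either library. With a free RNA amount estimated from these markers taken off each barcode, 14.8% of the WT library (2928 barcodes) and 21.2% of the DKO library (2954) passed 90%. The DKO share was then still the higher one, by a smaller margin. The estimate put the free RNA at 26.2% of the non-hemoglobin UMIs in the WT members and 12.1% in the DKO members. It uses the WT profile for both libraries, since the DKO matrix was deposited with called cells only.

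Depth also differed. The members held 7432604 UMIs in WT and 21346434 in DKO, with a median of 5070 and 7916 UMIs per barcode. Outside hemoglobin, 623539 WT and 1580922 DKO UMIs remained, and every gene level below is given in CPM of these. The median number of genes per barcode was 188 in WT and 193 in DKO. At an equal 2000 UMIs per barcode it was 98 and 80, against 142 and 135 in barcodes of 75 to 90% and 1040 and 1035 in barcodes under 5%. Of the barcode sequences, 80 occurred in both libraries, and 1 of them was a member in both. The doublet caller marked 3 WT and 2 DKO members.

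The targeted genes could not be read at this stage. Ddx41 had 5 UMIs in the WT members and 6 in the DKO members, and Cgas had 3 and 2. Among barcodes under 5% hemoglobin, Ddx41 stood at 31.8 CPM in WT and 14.7 in DKO, and Cgas at 21.3 and 13.4. The 3' tags need not lie in the deleted exons, and so the remaining counts do not show intact transcripts.

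The name of the stage was set against its markers. Hba-a2 is part of the rule and checks nothing. Bpgm makes the 2,3-bisphosphoglycerate that lowers the oxygen affinity of hemoglobin. Bpgm was at 27847 CPM in WT and 24067 in DKO, against 19826 and 13268 in barcodes of 75 to 90%. Alas2, the erythroid enzyme of the rate-limiting step of heme synthesis, was at 16228 in WT and 19124 in DKO, against 10395 and 10244. These are shares of a pool that was smaller in the members. Its median per barcode was 426 UMIs in WT and 586 in DKO members, against 679.5 and 1048 at 75 to 90%. A higher share is thus no sign of a higher count per barcode. Both markers were detected in nearly every member, with Bpgm in 93.3% of WT and 97.4% of DKO barcodes, against 10.4% and 8.37% of barcodes under 5% hemoglobin. In barcodes of 75 to 90% it was found in 97.1% and 98.2%, so that detection does not set the members apart from the stage before. Malat1, an RNA that stays in the nucleus, was at 1216 CPM in the WT members and 356 in the DKO members. Its level in barcodes of 75 to 90% was 3652 and 8746, and in the WT barcodes with 1 to 100 UMIs it was 6032. Transferrin receptor mRNA, which marks earlier erythroid cells, was found in 4.39% of WT and 4.67% of DKO members. These values go with the reticulocyte stage that the label names, but no value here measures a nucleus.

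Globin RNA differed between the libraries in its make-up, and its count per barcode was higher in the deeper DKO library. A WT member held on average 2528 Hbb-bs, 682 Hbb-bt, 812 Hba-a1 and 652 Hba-a2 UMIs. The same averages in DKO were 3565, 1009, 1650 and 1286. The beta genes were thus 1.41-fold (Hbb-bs) and 1.48-fold (Hbb-bt) higher per barcode in DKO. The alpha genes were 2.03-fold (Hba-a1) and 1.97-fold (Hba-a2) higher. All UMIs were 1.59-fold and non-hemoglobin UMIs 1.40-fold higher per barcode in DKO members. Globin amount and depth cannot be told apart from these folds.

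Alpha globin accordingly made up 31.3% of the hemoglobin UMIs in WT and 39.1% in DKO. Over barcodes the alpha share ran from 26.9% (5th percentile) through 31.4% (median) to 35.7% (95th percentile) in WT, and from 33.8% through 39.2% to 45.0% in DKO. The ranges between these percentiles overlapped from 33.8% to 35.7%, and the SD over barcodes was 2.80 points in WT and 3.59 in DKO. The higher alpha share of DKO was seen in every range of hemoglobin share given here. It was 32.7% in WT and 40.7% in DKO at 75 to 90%, 31.2% and 36.3% at 40 to 75%, and 29.5% and 34.5% at 15 to 40%. With barcodes matched on UMIs, which left a weight of 810 barcodes per library, the shares were 31.4% and 39.5%. The rule used the sum of these genes and not their ratio, but the barcodes come from 1 mouse per genotype and no test was made.

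**Figure D2:**
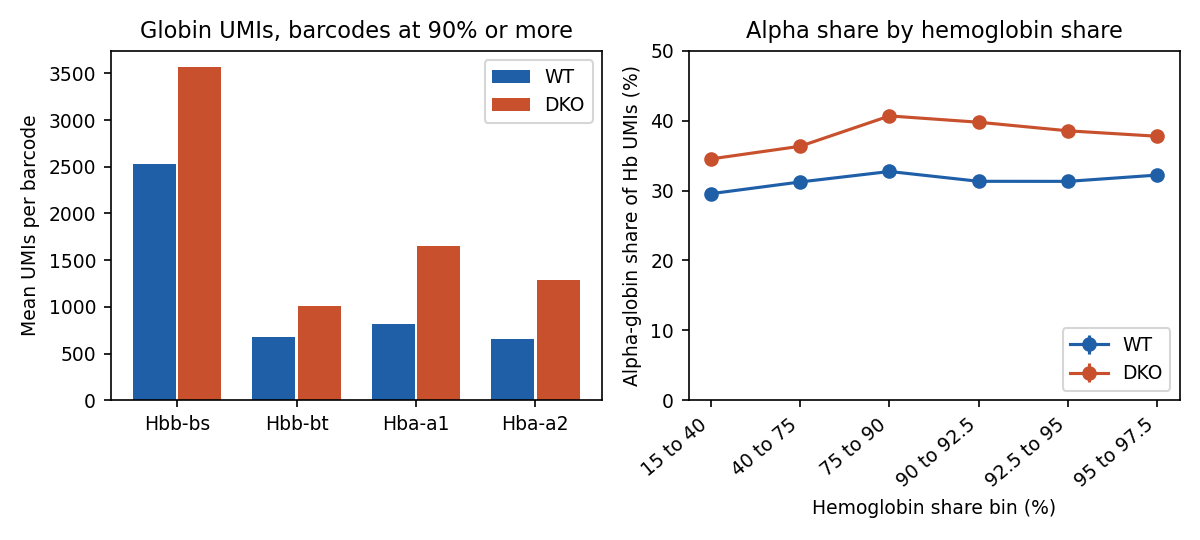
Left, mean UMIs per barcode (y axis) of the 4 globin genes in members of WT (blue) and DKO (orange). Right, alpha-globin share of the hemoglobin UMIs (y axis, percent) over bins of hemoglobin share (x axis, percent), with exact 95% counting intervals smaller than the points, where DKO lies above WT in every bin.

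Within each chain the genes kept nearly the same split. Hba-a1 was 55.5% of the alpha UMIs in WT and 56.2% in DKO. Hbb-bs was 78.8% of the beta UMIs in WT and 77.9% in DKO. This beta split moved with the hemoglobin share inside the members. In steps of 2.5 percentage points of hemoglobin from 90% upward, Hbb-bs made up 78.1%, 80.8% and 84.3% of the beta UMIs in WT. In DKO the values were 77.3%, 78.1% and 80.6%. Hbq1b and Hbq1a, the theta-like globin genes of the alpha cluster, were minor. Hbq1b stood at 531 CPM in WT and 589.5 in DKO, and Hbq1a at 284 and 366. The embryonic genes Hbb-bh1 and Hbb-y had 19 and 7 UMIs in the WT members and 15 and 11 in the DKO members.

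Beside hemoglobin, a few transcripts took up much of the remaining RNA. Gm42418 alone had 188242 CPM in WT and 231583 in DKO. GENCODE M21 places this gene, ENSMUSG00000098178, at chr17:39846958-39848788 on the plus strand, inside an annotated ribosomal RNA locus on the other strand, so that its counts may not come from an mRNA. With 3' tags each molecule counts once, whatever its length. The leading mRNAs included those of Bpgm, Mkrn1, Ubb, Alas2, Gpx1, Oaz1, Ftl1 and Pabpc1. Mkrn1, a ubiquitin ligase, was at 22388 CPM in WT and 27391 in DKO. Mitochondrially encoded transcripts made up 2.06% of the non-hemoglobin UMIs in WT and 2.09% in DKO, and ribosomal protein transcripts 5.87% and 3.69%.

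The composition of this remaining RNA was set against barcodes of 75 to 90% in the same library. The rule separates these groups by hemoglobin share, and the values are a description. They are shares of the non-hemoglobin UMIs, which were fewer per barcode in the members. Of 984 genes with at least 50 CPM, 229 (23.3%) were at least 2-fold lower in members in both libraries and 0 (0.0%) were at least 2-fold higher in both. In WT alone 25.8% were at least 2-fold lower and 0.0% higher, and in DKO alone 33.6% were lower and 0.305% higher. The genes with the largest decreases among those of at least 200 CPM included Xpo7, a nuclear exportin needed for chromatin condensation and enucleation. Xpo7 was at 2473 CPM in WT barcodes of 75 to 90% and 247 in WT members, and at 8022 and 534 in DKO. It was thus far below its earlier level in either mouse. Other leading decreases were Arl4a, Dennd4a, Akap13, Tmem131l, Slfn14 and Gpcpd1, with log2 ratios from -2.69 to -5.14.

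By function, the genes lower in both libraries are set against the 23.3% of all genes, and no difference between lists was tested. Among membrane and skeleton genes 11 of 24 were, among heme synthesis genes 4 of 9, among erythroid transcription factors 4 of 9 and among ubiquitin pathway genes 3 of 23. None of 77 ribosomal protein genes, 10 mitochondrially encoded genes or 10 interferon-stimulated genes was. The list of heme synthesis genes held members moving apart, since Alas2 was higher in members (log2 0.64 in WT and 0.90 in DKO) while Urod was lower. Other transcripts higher in the members, all by less than 2-fold, were Ftl1, the ferritin light chain (0.69 and 0.86), Ube2l6, a conjugating enzyme of ubiquitin and Isg15 (0.67 and 0.91), Oaz1, a brake on polyamine synthesis (0.61 and 0.90), and Gabarapl2, an autophagy protein (0.58 and 0.86).

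Levels also varied with hemoglobin share inside the members. The members were split into the first 2.5 percentage points from 90%, the next 2.5 points, and 95% and more, and the values are given in this order. Slc4a1, the band 3 anion exchanger, was at 1704, 626 and 0 CPM in WT and at 4861, 2728 and 561 in DKO. Gpx1, a glutathione peroxidase, was at 13287, 4362 and 1651 in WT and at 23017, 18655 and 7842 in DKO. Both were lower at each step in both libraries. The DKO values were above their WT counterparts, but for Slc4a1 at 95% and more the WT count of 0 is too sparse to compare. The WT bin at 95% and more held 29 barcodes with 5451 non-hemoglobin UMIs, where a count of 0 allows 3 counts. The free RNA estimate, as a share of non-hemoglobin UMIs, was 25.4%, 29.9% and 36.4% in WT over the 2.5-point steps from 90% upward. In DKO it was 11.0%, 13.1% and 17.7%, and its part in these levels was not tested.

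Alas2 went the other way, with 15152, 21452 and 25683 CPM in WT and 16728, 21830.2 and 29379.8 in DKO. Ftl1 likewise was at 15684, 20826 and 28068 in WT and at 11017, 15291 and 21059 in DKO. Bpgm and Ubb were not highest in the last range of either library. Bpgm was at 28247, 26419.5 and 15227 in WT and at 22821, 26431 and 23466 in DKO. Ubb was at 34318, 17829 and 10273 in WT and at 18378, 17171 and 8181 in DKO.

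**Figure D3:**
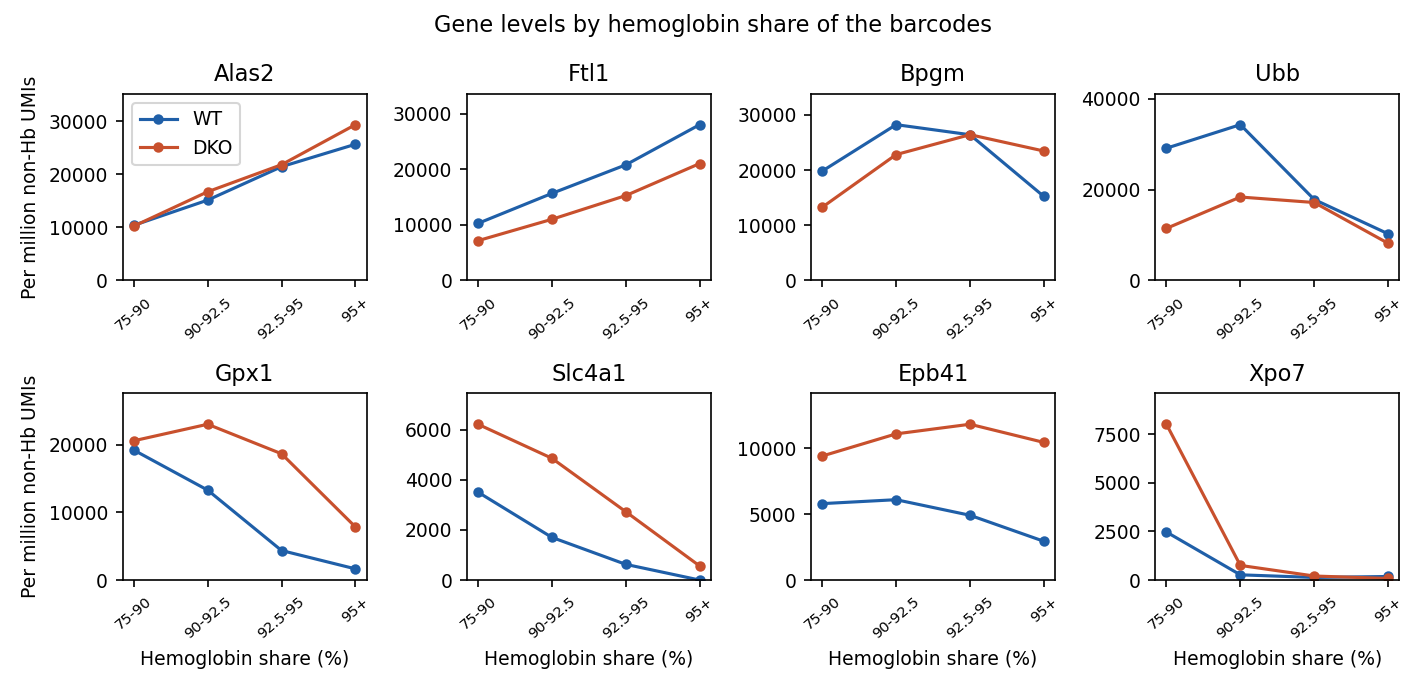
Levels of 8 genes (y axes, CPM of non-hemoglobin UMIs) in barcodes of 75 to 90% hemoglobin and in the ranges of the members, up to 95% or more (x axes), for WT (blue) and DKO (orange). As shares of non-hemoglobin UMIs, Alas2 and Ftl1 climb over the bins, whereas Gpx1, Slc4a1 and Xpo7 end far below their level at 75 to 90%.

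The members of both libraries were then compared gene by gene. Of 965 genes with at least 50 CPM as the mean of both libraries, 42 (4.35%) were at least 2-fold higher in DKO and 202 (20.9%) at least 2-fold lower, and the median log2 ratio of all genes was -0.23. With the median ratio set to 0 the counts were 91 and 122. With barcodes matched on UMIs they were 17 and 119, and with barcodes matched on hemoglobin share (a weight of 1405 barcodes per library) 75 were higher. The number of genes past 2-fold thus varied with the depth and stage of the barcodes compared, and the value at equal depth is given for genes named in this comparison that it takes across the 2-fold line.

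Pabpc1 and Tent5c, which act on the poly(A) tail, were among the highest genes. Pabpc1, the cytoplasmic poly(A)-binding protein, was at 7233 CPM in WT and 17215 in DKO, a log2 ratio of 1.25 (interval 1.21 to 1.30). Tent5c, a poly(A) polymerase, was at 7439.8 and 15913, a ratio of 1.10 (1.05 to 1.14). At matched depth these ratios were 1.06 and 1.13. Without matching, they were 0.80 and 0.64 in barcodes of 75 to 90% hemoglobin. At 40 to 75% they were 0.05 and 0.13, and under 5% they were 0.15 and 0.14. The higher DKO level of both genes was thus also seen at 75 to 90%, below the 2-fold line. Whether the ratios differ between these ranges was not tested. Rbm38, an RNA-binding protein, was at 228 and 468, but its ratio of 1.03 became 0.16 at matched depth. Of the 10 genes of the poly(A) and mRNA stability list that passed the filter, 3 were at least 2-fold higher and 2 lower. Over all genes the shares were 4.35% and 20.9%. The list had 5 genes above 0 and 5 below, with a median of 0.10 (0.01 at matched depth). Among the lower ones was Ybx1, a cold-shock domain protein, at 188 and 54.4 (-1.78, and -0.97 at matched depth).

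Membrane and skeleton genes had a median above 0. Of 22 that passed the filter, out of 30 in the files, 5 were at least 2-fold higher in DKO (against 4.35% of all genes). At least 2-fold lower was 1, and their median was 0.66. The median of the same genes was 0.74 in barcodes of 75 to 90% hemoglobin, 0.40 at 40 to 75% and 0.27 under 5%. Slc4a1 was at 1520.4 CPM in WT and 3913 in DKO (log2 1.36, interval 1.26 to 1.46). Dmtn, an actin-bundling protein of the skeleton, was at 38.5 and 98.7 (1.31, and 0.94 at matched depth) and passed the filter only through its DKO level. Epb41, protein 4.1, was at 5875 and 11281, a ratio of 0.94 (0.89 to 0.99). The water channel gene Aqp1 was the one lower gene, at 104 and 51.9 (-1.01, and -0.93 at matched depth).

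The pattern changed at equal depth. At matched UMIs its median was -0.01 and 1 gene was at least 2-fold higher. Slc4a1 then had a ratio of 0.59, while Epb41 stayed at 0.99. Depth also went with hemoglobin share inside the members, where the median from the first to the third 2.5-point step above 90% was 5366, 4303 and 4050 UMIs in WT and 8306.5, 7741 and 6736 in DKO. Genotype and depth cannot be told apart for this list.

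Other genes of the upper end belonged to varied classes. Kdm7a, a histone demethylase, was at 253 and 734 CPM and kept its ratio at matched depth (1.53 and 1.49). Fam214b, at 133 and 438, had the highest ratio under the naming rule (1.70), which was 0.79 at matched depth. E2f2, a cell cycle transcription factor of the erythroid lineage, was at 481 and 1051 (1.12, and 0.84 at matched depth). Ppp1r15a, which reverses the phosphorylation of eIF2alpha, was at 156 and 359 (1.19, and 0.40 at matched depth). Bcl2l1, which encodes the survival protein BCL-XL of late erythroblasts, was at 919 and 1779, below the 2-fold line with a ratio of 0.95. The remaining leading genes Vopp1, Acsl1 and Tmcc2 had ratios of 1.14 to 1.24, and of 0.63 to 0.86 at matched depth.

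**Figure D4:**
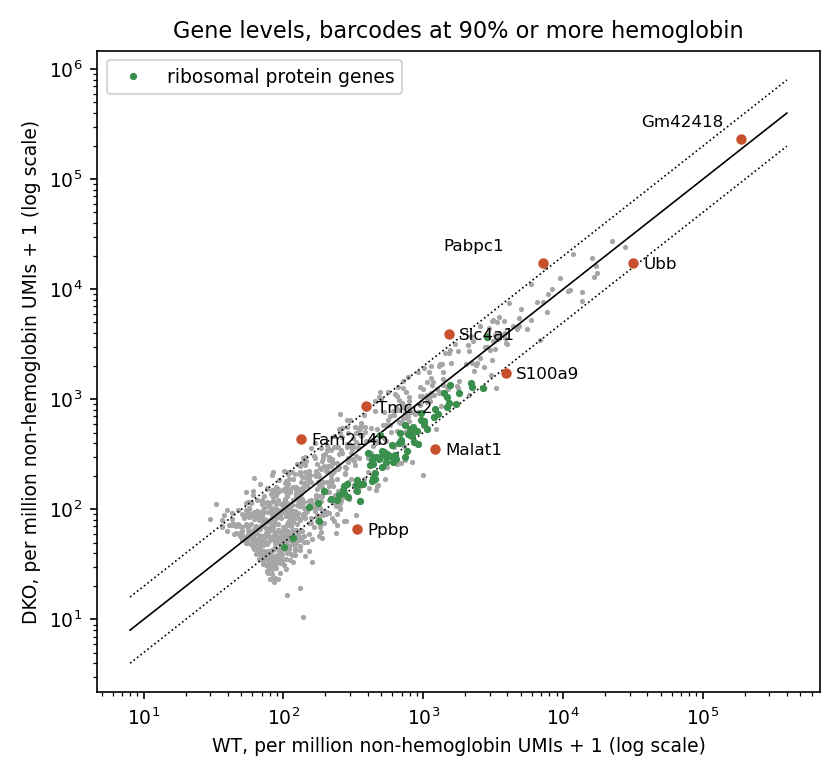
Each dot is 1 of 965 genes in the members, with its level in WT (x axis) and DKO (y axis) CPM of non-hemoglobin UMIs plus 1, both on log scales. The solid line marks equal levels, dotted lines mark 2-fold, labelled genes are red, and ribosomal protein genes (green) lie almost all under the solid line.

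Ribosomal protein genes were lower in DKO nearly as a block. Of 78 that passed the filter, 77 had a ratio below 0, against 582 of all 965 genes. At least 2-fold lower were 24, against 20.9% of all genes, and none was 2-fold higher. The median was -0.78 against -0.23 over all genes. Rplp0, of the ribosomal stalk, was at 2677 CPM in WT and 1279 in DKO (log2 -1.07, and -0.97 at matched depth). Rps24, whose human counterpart is mutated in some Diamond-Blackfan anemia, was at 1727 and 916 (-0.92). Rpl41 was the one gene above 0, at 2856 and 3710.5 (0.38). Ribosomal protein genes have many near-identical pseudogenes, between which the counting could split reads, so that the values of single genes are uncertain.

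The ribosomal genes were also lower in DKO outside the members. The median of the same genes was -0.75 in barcodes of 75 to 90% hemoglobin, -0.40 at 40 to 75% and -0.21 under 5%, where other marrow cells prevail. Whether these medians differ was not tested. In the members it was -0.72 at matched UMIs (-0.36 over all genes) and -0.73 after free RNA was subtracted (72 genes below 0). The 2-fold line was passed downward by 9 of the 78 at matched UMIs. This was near the share of all genes, where 119 of 965 did so. The stage comparison above showed no such decrease within a library, where the median was 0.09 in WT and 0.02 in DKO.

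Translation factors shared this direction. Of 15 genes of the translation control and stress list, 5 were at least 2-fold lower, against 20.9% of all genes. Only 1 (Ppp1r15a) was higher, against 4.35% of all genes, and the median was -0.81. At matched UMIs 5 were lower and 0 higher. Eif1, which takes part in start codon choice, was at 6864 CPM in WT and 3498 in DKO (-0.97). Eif4a1, the RNA helicase of the cap-binding complex, was at 179.6 and 56.3. Tpt1, translationally controlled tumor protein, was at 13688 and 7792 (-0.81), whereas Eif5 was higher in DKO at 3770.4 and 5147 (0.45).

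Ubb and Rps27a, which encode ubiquitin itself, were below 0 in DKO, while many ubiquitin enzymes were not. Ubb, which encodes a chain of ubiquitin units, was at 31531 CPM in WT and 17421 in DKO (-0.86, and -1.39 at matched depth). Rps27a, a fusion of ubiquitin with a ribosomal protein, was at 688 and 409.9 (-0.75).

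Over the whole ubiquitin pathway list, 1 of 22 genes was at least 2-fold higher and 2 were lower, against 4.35% and 20.9% of all genes. The median was 0.31, and at matched UMIs 0 genes were at least 2-fold higher. Rnf123, a ubiquitin ligase, was the higher one, at 35.3 and 79.1 CPM, with a ratio of 0.30 at matched depth, and it passed the filter only through its DKO level. Ube2o, the conjugating enzyme that clears ribosomes and surplus globin in reticulocytes, had a ratio of 0.87. Ube2l6 differed little, at 10899 and 9741 (-0.16).

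Interferon-stimulated genes were lower in DKO with few exceptions. Of 10 that passed the filter, out of 36 in the files, 7 were at least 2-fold lower, against 20.9% of all genes. Below 0 were 9, and the median was -1.13. Ifitm3, a membrane protein that blocks virus entry, was at 277 CPM in WT and 77.2 in DKO. Ifi27 was at 536 and 187 (-1.52), B2m, the light chain of MHC class I, at 465 and 163 (-1.52), and Irf7, a transcription factor of the interferon response, at 191 and 88.6. Isg15, a ubiquitin-like modifier, was at 3058 and 1657 (-0.88, and -1.70 at matched depth) and reached -1.86 in barcodes under 5% hemoglobin. Rsad2, viperin, stood apart at 2769.7 and 3007 (0.12). At matched UMIs 7 of the 10 were at least 2-fold lower, against 119 of all 965 genes, with a median of -1.26. The median of the same genes was -1.20 in barcodes of 75 to 90% hemoglobin, -1.26 at 40 to 75% and -0.79 under 5%. The lower level was thus not particular to the members. In the members the median was -1.39 after free RNA was subtracted. The summed level of the list was 13946 in WT members, 10075 in DKO members and 4799.8 in the WT barcodes with 1 to 100 UMIs.

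Transcripts of dividing and earlier erythroid cells had medians below that of all genes in DKO. Of 13 cell cycle genes, all were below 0, 6 by at least 2-fold (against 20.9% of all genes), and the median was -0.79. At matched UMIs 11 were below 0 but only 2 were at least 2-fold lower, against 119 of all 965 genes. Below 0 were 9 after free RNA was subtracted and 12 with the median of all genes set to 0. Ube2c, which the anaphase-promoting complex uses to mark cyclins, was the most abundant of them and differed little, at 3273 CPM in WT and 2870.5 in DKO. Hmgb2, a chromatin protein, was at 651 and 259 (-1.33, and -0.91 at matched depth) and the histone variant gene H2afz at 435 and 207 (-1.07 and -0.92). Hist1h2ap, a replication-dependent histone gene, was at 138 and 9.49 (-3.79). Of 4 such histone genes, 3 were at least 2-fold lower, and 3 at matched UMIs. Of 10 early erythroid genes, 6 were at least 2-fold lower (5 at matched UMIs), among them Ran, a nuclear transport GTPase, at 196 and 74.6. Of the glycolysis genes, Gapdh was at 127 and 57.6, Aldoa at 85 and 36.1 and Pkm at 81.8 and 27.8. Aldoa, Pkm and Hist1h2ap passed the filter only through their WT level, so that their low DKO levels are no support for a change of their groups. The cell cycle genes summed to 9557 CPM in the WT barcodes with 1 to 100 UMIs, against 6146 in the WT and 4245 in the DKO members. None of the 16 Trp53 target genes passed the filter.

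**Figure D5:**
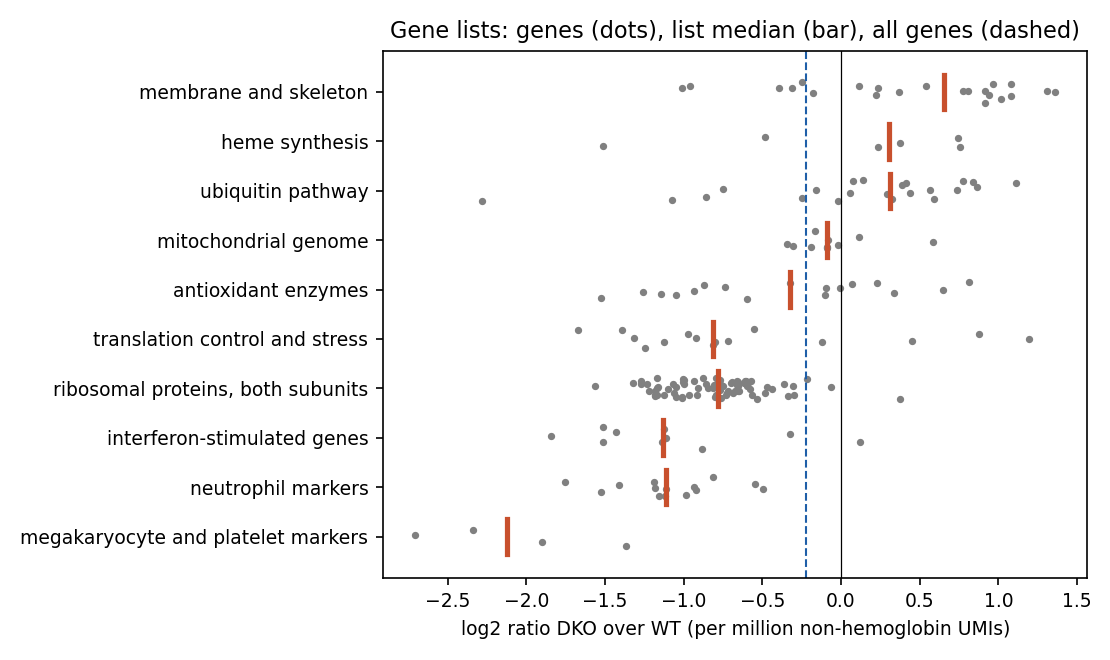
Log2 ratio of DKO over WT (x axis) of the genes that passed the filter (grey dots) in 10 gene lists (y axis), with the median of each list as an orange bar and that of all genes as a blue dashed line. The membrane and skeleton list has its median at 0.66, while the medians of the ribosomal, interferon, neutrophil and platelet lists lie to the left of the dashed line.

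Genes of heme and iron handling showed small differences. Of 6 heme synthesis genes, none was at least 2-fold higher and 1 was lower, Tmem14c, a porphyrin transporter of mitochondria, at 99.4 CPM in WT and 34.8 in DKO (-1.51, and -0.95 at matched depth), which passed the filter only through its WT level. Alas2 had a ratio of 0.24 and Fech, ferrochelatase, one of 0.74 (3106 and 5193). None of 8 iron genes passed 2-fold. Slc25a37, mitoferrin 1, was at 4110.4 and 7518 (0.87), and the ferritin chains Fth1 (13693 and 9452) and Ftl1 (16596 and 12994) were lower. Bpgm, at -0.21, was close to the median of all genes. Of the organelle clearance genes, 2 of 14 were at least 2-fold higher and 2 lower, against 4.35% and 20.9% of all genes. At matched UMIs 0 were higher and 1 was lower. Bnip3l, the mitophagy receptor of reticulocytes, was at 8394 and 9976 (0.25).

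Antioxidant enzymes were near the background without matching, with 4 of 17 at least 2-fold lower, against 20.9% of all genes. Their median was -0.32. At matched UMIs 4 of the 17 were at least 2-fold lower, against 119 of all 965 genes. The median was then -0.56, against -0.36 over all genes. Gpx1 was at 11791 and 20732 CPM (0.81, and 0.34 at matched depth), Prdx2 at 7243 and 7592 (0.07) and Blvrb at 3953 and 3158 (-0.32, and -1.14 at matched depth). The mitochondrially encoded genes had a median of -0.09, with none of 10 past 2-fold. Their median was 0.50 at matched UMIs and 0.94 after free RNA was subtracted, and no direction is read from it.

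Markers of some other cell types moved with the genotype as well. All 14 neutrophil markers that passed the filter were below 0 in DKO, 8 by at least 2-fold, against 20.9% of all genes. At matched UMIs all 14 were below 0 but only 3 were at least 2-fold lower, against 119 of all 965 genes. After the subtraction, which uses their sum, 9 were below 0. S100a9 was at 3884 CPM in WT and 1745 in DKO (-1.15, and -0.83 at matched depth). All 4 platelet and megakaryocyte markers were at least 2-fold lower (3 at matched UMIs), among them Ppbp at 335 and 65.8 and Pf4 at 329 and 87.9. None of 4 B and plasma cell markers was at least 2-fold lower, and their median was -0.38, or 0.38 after free RNA was subtracted. The summed level of the 10 platelet markers was 4199 and 1474, and 12334 in the WT barcodes with 1 to 100 UMIs. The lower levels of Ptma, Ppia, Actg1 and Malat1 in DKO (log2 -1.50 to -1.77) belong to genes that were more abundant in those cell-free barcodes than in either set of members. The part of free RNA in these differences was not tested beyond the subtraction given above. Genes named here that stand neither among the largest changes nor among the 4 most abundant of their list, namely Dmtn, Aqp1, Ybx1, Ifitm3, Irf7, Eif4a1, Tmem14c, Rps27a, Ube2o and Rnf123, were chosen after their values were seen.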

How the data were processed

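Bone marrow barcodes of 1 WT and 1 DKO library were analysed from the gene by barcode matrices. The authors aligned and counted the reads with Cell Ranger 7.1.0 per the file headers, on mm10 per the submitters' processing notes, and deposited raw UMI counts. The WT matrix holds 1518290 barcodes, 1194299 of them with a UMI, and the DKO matrix 14142 called cells. Barcodes with at least 500 UMIs (19947 WT and 14142 DKO) were kept unless over 20% of their UMIs were mitochondrial (183 and 215 removed). Doublets were called with Scrublet, whose automatic threshold marked 0% of WT, so that the DKO threshold was used for both (314 and 198 marked). They stayed in and were left out as an alternative.

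Counts were summed over the members of a library and given per 1000000 non-hemoglobin UMIs (CPM). Ratios are log2 with 1 count added, with exact 95% conditional binomial intervals, and were checked on simulated data. A gene was tested at 50 CPM or more and called at 2-fold. With 1 library per genotype, no p-value was computed. PCR duplicates are removed by UMIs, but droplets share free RNA and cells share a mouse, so the intervals cover counting error only.

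Genes were named when targeted or a marker, among the 10 most abundant, among the 8 largest stage or 10 largest genotype changes of at least 200 CPM, or among the 4 most abundant of a gene list. The members, gene lists and alternatives were chosen with earlier results of these data known. RefSeq promoter windows and GENCODE M21 positions gave sequence and coordinates, and 32158 of 32285 gene identifiers were in GENCODE M21. Python 3.11.15, numpy 2.4.6, scipy 1.17.1, pandas 2.3.3 and scanpy 1.11.5 were used. The cell numbers of the wider study were not used here. Some genes that the naming rule covers are not reported here.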

Additional observations from a re-analysis of the deposited data

How the results depend on the processing

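With 2000 or more UMIs required, the members were 8.61% of WT and 21.0% of DKO, with a threshold of 95% hemoglobin 0.147% and 2.16%, and with at most 5% mitochondrial UMIs 19.7% of DKO. The alpha share was 31.4% in WT as a mean over barcodes or at matched UMIs and 32.2% at the 95% threshold, and in DKO it was 37.7% at that threshold and 39.5% when matched on hemoglobin or on UMIs. In the stage comparison, the genes lower in both libraries numbered 516 with all UMIs as the denominator, 384 with a filter of 20 CPM and 554 with no filter, and those higher in both 2 with the median ratio set to 0, 141 with no filter and 4 after free RNA was subtracted. Genes higher in DKO numbered 18 with all UMIs, 91 with the median at 0, 75 matched on hemoglobin, 17 matched on UMIs, 106 with no filter and 118 after subtraction. Genes lower in DKO numbered 122 with the median at 0, 119 matched on UMIs, 665 at 20 CPM and 4911 with no filter.

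The median of all genes was -0.41 with all UMIs, -0.16 matched on hemoglobin, -0.36 matched on UMIs, -0.60 at 20 CPM, -0.98 with no filter, -0.068 after subtraction and -0.13 without Gm42418 and like loci. The membrane median was -0.0056 matched on UMIs. The ribosomal median was -0.96 with all UMIs, -0.56 with the median at 0 and -0.69 without Gm42418. The mitochondrial median was 0.14 with the median at 0, 0.50 matched on UMIs and 0.94 after subtraction, where the early erythroid median was -1.58 and the neutrophil median -1.48. S100a8 turned to 0.26 after subtraction, a step built to remove neutrophil markers. The causes of the other shifts were not tested. The subtraction and the removal of Gm42418 were chosen after seeing the data.

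Ratios of DKO over WT and the counts of genes were not recomputed at the 95% threshold, where 29 WT barcodes remain, and WT levels given for that range rest on few counts. No paired analysis was possible because each genotype has 1 mouse. Low WT depth limits genes near 50 CPM.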
